A study of Mus musculus with 9 samples.

Results

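The 10 genes described here encode 7 Eph receptors (Ephb1, Ephb2, Ephb3, Ephb4, Ephb6, Epha4 and Epha7) and the 3 ephrin-B ligands (Efnb1, Efnb2 and Efnb3). They were taken by symbol from the feature lists, where each matched 1 of 32285 mouse genes, and their unique molecular identifiers (UMIs, 1 per captured transcript) were read in every mouse and in cell types gated on marker genes. Brains of 5 mice with EP ZFTA-RELA ependymoma (genotype NestinCreERT2;Fus1) and of 4 control mice (genotype NestinCreERT2;TdT), aged 6 to 8 weeks, had been profiled by droplet-based 5′ single-cell RNA-seq, with 1 library per mouse. All 9 mice carried the NestinCreERT2 allele. In the tumor mice it recombines a ZFTA-RELA fusion allele placed at Rosa26 in embryonic radial glia, so the fusion can be present in any descendant of those cells. Tumor or brain was dissected free of choroid, centrifuged in Percoll and sorted on Ter119 and DAPI, and a tumor library therefore held brain cells as well as tumor cells. The question addressed here is where each receptor and ligand was expressed in tumor and control brain, and which of them differed between the groups or between cells with fusion-allele transcripts and their neighbours.

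Ephs are receptor tyrosine kinases that bind ephrins anchored in the membrane of a neighbouring cell. Binding signals in both directions, forward into the cell with the receptor and in reverse into the cell with the ephrin. EphB receptors mainly bind the transmembrane ephrin-B ligands and EphA receptors the lipid-anchored ephrin-A ligands, while EphA4 binds ligands of both classes. In the nervous system the family guides axons, shapes synapses, keeps cell populations apart at tissue boundaries and acts in the neural stem cell niche, and in vessels ephrin-B2 and EphB4 are the textbook arterial and venous members.

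After filtering, 20405 control and 15916 tumor cells were kept, with 13763731 to 21703892 UMIs per control mouse and 5902794 to 37652982 per tumor mouse. Counts between replicates differed by more than sampling noise (chi-square per degree of freedom of 4.38 to 12.8 between controls and 71.4 to 371 between tumors), and no pair of the 8 libraries with a complete barcode list shared more than 9 of the barcodes kept. Neuron-like cells made up 12220 of the kept control cells, whereas no tumor held more than 579 of them and tumor 4 held 10. The free RNA of a library, measured in its 3000 barcodes with fewest UMIs, also contained the members, and its level is given beside the results that it touches. No deposited barcode held fewer than 468 UMIs and these had medians of 559 to 1338 UMIs, so they were not shown to be free of cells. Tumor 3 had 9001 barcodes in all, so its 3000 lowest were also among those considered as cells. Cells carrying transcripts of the fusion allele above free RNA, and no marker set of a class other than cycling or radial-glia-like, are called fusion-allele cells. Above free RNA means a Poisson p under 0.05 for the cell's allele UMIs against their share in free RNA. This limit was applied per cell, without correction for the number of cells. Fusion-allele cells numbered 49, 162, 49, 634 and 180 of 2366, 3063, 1721, 5121 and 3645 kept cells in tumors 1 to 5. Some calls can therefore be free RNA, above all in tumors 1 and 3, where fewest cells passed, and their number was not tested. The cycling and radial-glia-like classes hold only cells without such an allele call. Cycling cells needed 5 of 10 cycling markers, with no minimum over free RNA. The other classes are named X-like where a cell held at least 0.5 of a marker list and the list's UMIs reached 3 times their share in free RNA. Neuron-like cells could pass instead on the list of a neuron subtype. A cell's margin to that limit was under 1.5 times for 59.4% of astrocyte-like, 29.4% of OPC-like and 22.8% of oligodendrocyte-like cells, but for 3.47% of microglia-like and 0.655% of endothelial-like cells. On the main neuron list 46.5% of neuron-like cells lay under that margin, including those that had passed on a subtype list, the lowest at 0.526 times free RNA. Levels are counts per 1e6 UMIs (CPM) of a mouse's summed cells and are compared within a gene, never between genes.

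Efnb1 and Ephb2, a ligand and a receptor of the B class, were both higher in fusion-allele cells than in astrocyte-, neuron-, microglia- and endothelial-like cells of the same tumors, and their promoters are shown for that reason. Each sequence runs 5′ to 3′ from 250 bases before to 50 after the RefSeq transcription start (GRCm38, the same build as mm10), at chrX:99135811-99136110 on the plus strand for Efnb1 and at chr4:136835963-136836262 on the minus strand for Ephb2. Capitals mark a match to the NF-kB consensus on either strand.
Efnb1: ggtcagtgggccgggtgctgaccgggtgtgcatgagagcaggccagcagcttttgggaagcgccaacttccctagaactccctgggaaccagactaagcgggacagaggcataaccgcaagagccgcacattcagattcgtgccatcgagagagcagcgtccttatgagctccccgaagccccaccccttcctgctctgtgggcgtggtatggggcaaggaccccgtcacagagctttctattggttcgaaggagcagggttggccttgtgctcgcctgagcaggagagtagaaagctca
Ephb2: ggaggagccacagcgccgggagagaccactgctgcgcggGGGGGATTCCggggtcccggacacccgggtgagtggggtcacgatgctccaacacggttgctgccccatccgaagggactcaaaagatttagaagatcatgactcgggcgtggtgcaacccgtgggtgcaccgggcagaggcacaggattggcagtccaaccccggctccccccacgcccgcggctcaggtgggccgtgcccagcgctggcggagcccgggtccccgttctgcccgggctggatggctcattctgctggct
The Ephb2 window held 1 match, GGGGGATTCC, starting at base 40, and the Efnb1 window held none. Of the 9 members with a RefSeq promoter, Ephb1 was the other one with a match. The consensus was present in 4.51% of all 32851 promoter windows of this length, and a match describes letters and not binding.

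Over all kept cells, 7 of the 10 members passed the test between tumor and control mice, 3 higher and 4 lower in tumors. This share has to be read against a background in which 61.6% of the 17599 genes tested passed (32.3% higher and 29.4% lower). In summed cells, fewer cells of a type and less RNA per cell cannot be told apart. The summed level of the 8 neuron markers was 19843 to 22187 CPM in controls and 411 to 7988 CPM in tumors, with no marker at 0 in any mouse, and its part in these differences was not tested.

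Among the receptors, Ephb2 (chr4:136647539-136835988, minus strand), which acts in axon guidance and at excitatory synapses, was at 12.3, 12.3, 12.1 and 13.4 CPM in controls 1 to 4. In tumors 1 to 5 it was at 16.4, 33.1, 17.5, 53.3 and 77.2 CPM. Every tumor lay above every control, tumors 1 and 3 only slightly, and the log2 difference was 1.99 ± 0.52 (SE; edgeR adjusted p = 0.00818). Ephb4 (chr5:137350109-137378669, plus strand), the venous receptor, was rare, with 61 UMIs in all controls and 167 in all tumors. It was at 0.945, 1.21, 0.631 and 0.553 CPM in controls and at 2.37, 1.5997, 7.24, 1.46 and 1.24 CPM in tumors. The groups did not overlap, but tumor 5 was barely above control 2 and tumor 3 stood far above the others. The log2 difference of Ephb4 was 1.85 ± 0.54 (edgeR adjusted p = 0.0136), and 1.27 without tumor 3 (edgeR adjusted p = 0.0115). The summed endothelial markers moved the same way, from 71.0 to 137 CPM in controls to 403 to 2888 CPM in tumors, and their part in the Ephb4 result was not tested.

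The neuronal receptors were lower in tumors. Epha4 (chr1:77367185-77515088, minus strand), a guidance receptor of the corticospinal tract that also acts at synapses and in astrocytes, was at 151, 145, 126 and 150 CPM in controls and at 45.4, 50.7, 52.8, 53.1 and 51.6 CPM in tumors. All 5 tumors lay close together and far below the controls (log2 difference -1.23 ± 0.17, edgeR adjusted p = 0.000444). Epha7 (chr4:28813131-28967499, plus strand), a receptor of cortical and hippocampal neurons, was at 106, 103, 120 and 118 CPM in controls and at 43.0, 6.64, 16.1, 2.98 and 8.02 CPM in tumors. Tumor 1, which kept the most neuron-like cells of the tumors, was the highest of them and tumor 4 the lowest (log2 difference -2.78 ± 0.57, edgeR adjusted p = 0.00261). Without tumor 1 the Epha7 difference was -3.52. Ephb6 (chr6:41605482-41620509, plus strand), a receptor without kinase activity, was likewise highest in tumor 1 and lowest in tumor 4. It was at 34.2, 31.6, 30.2 and 32.6 CPM in controls and at 13.04, 5.51, 12.2, 1.65 and 4.10 CPM in tumors, with no overlap (log2 difference -2.02 ± 0.43, edgeR adjusted p = 0.00331).

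The other receptors did not pass the test. Ephb1 (chr9:101922128-102354693, minus strand), which directs retinal axons at the optic chiasm, was at 36.4, 34.4, 27.9 and 29.1 CPM in controls and at 18.3, 23.3, 26.1, 20.9 and 19.03 CPM in tumors. All tumors lay below all controls in CPM, but on the TMM-scaled counts of the test the log2 difference was -0.31 ± 0.19 (edgeR adjusted p = 0.173). Ephb3 (chr16:21204755-21223305, plus strand), known from axon guidance and from progenitor positioning in the gut, was at 9.21 to 11.2 CPM in controls and 4.57 to 13.2 CPM in tumors. These ranges overlapped, and the log2 difference was 0.18 ± 0.38 (edgeR adjusted p = 0.700).

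Of the ligands, Efnb1 (chrX:99136130-99148991, plus strand), an ephrin of neural progenitors whose loss disturbs craniofacial boundaries, had the largest rise of the 10 members. It was at 8.79, 7.44, 5.49 and 6.04 CPM in controls and at 17.6, 159, 36.4, 141 and 115 CPM in tumors. Tumors 2, 4 and 5 were far above every control and tumor 1, the lowest tumor, was still above control 1 (log2 difference 4.13 ± 0.73, edgeR adjusted p = 0.00128). Efnb2 (chr8:8617434-8661242, minus strand), the arterial ligand, was at 32.5, 32.4, 31.2 and 35.4 CPM in controls and at 20.7, 20.6, 28.6, 12.6 and 15.5 CPM in tumors. The groups did not overlap and the log2 difference was -0.53 ± 0.19 (edgeR adjusted p = 0.0354). This call was lost when any control, tumor 4 or tumor 5 was left out, with an adjusted p of up to 0.0934. Efnb3 (chr11:69554092-69560205, minus strand), a midline ligand that is also made by oligodendrocytes, was at 45.1 to 53.3 CPM in controls and at 72.7, 16.9, 44.5, 1.91 and 18.8 CPM in tumors. Tumor 1 lay above all controls and the other tumors below them, and no difference passed (log2 difference -0.54 ± 0.65, edgeR adjusted p = 0.483).

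**Figure D1:**
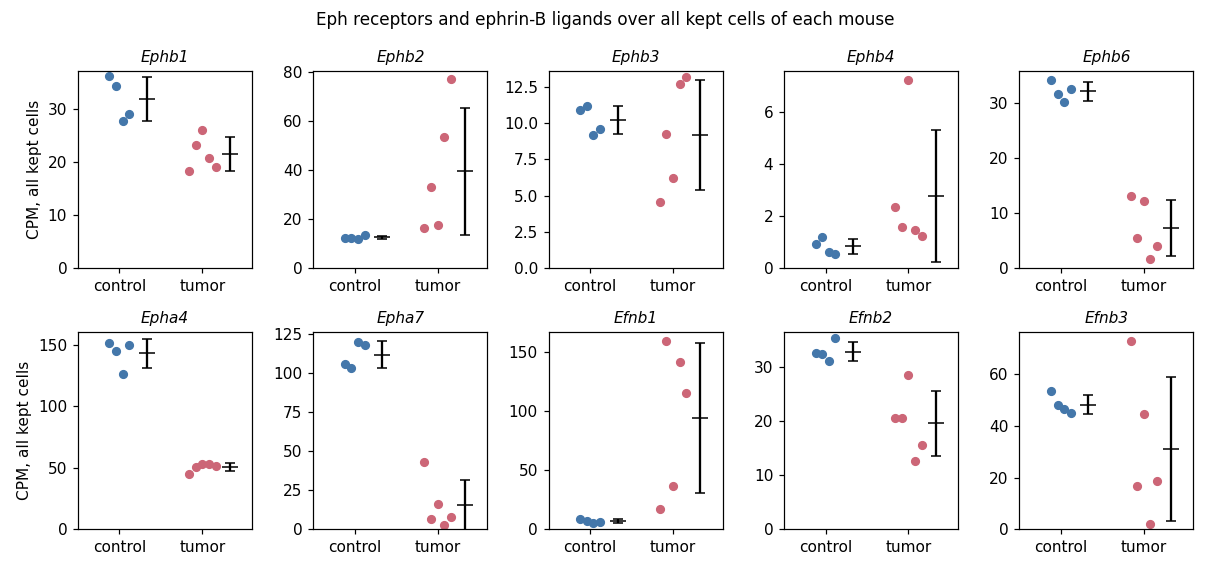
CPM of each of the 10 members (y axis, linear, starting at 0) over all kept cells of each mouse, with 1 panel per gene and 1 point per mouse, for 4 control and 5 tumor mice. Efnb1 and Ephb2 spread widely among tumors and lie above the controls, whereas the tumors' Epha4 values lie together between 45.4 and 53.1 CPM, below every control.

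Gated by class, the members separated into different cell types. Levels by class are means over tumors with at least 20 cells of the class, with SD. Efnb1 was highest in cycling cells (188 ± 36.8 CPM, n = 3), fusion-allele cells (179 ± 105 CPM, n = 5) and radial-glia-like cells (122 ± 51.4 CPM, n = 5). The SDs of these 3 levels overlapped, although cycling and radial-glia-like cells differed by more than either SD. It then fell to 69.9 ± 16.1 CPM in neuroblast-like cells (n = 3), not counting erythroid-like cells of only 2 tumors at 88.5 ± 68.0 CPM, and to 36.8 ± 43.8 CPM in OPC-like cells (n = 5). Ephb2 had much the same order, at 65.2 ± 19.4 CPM in cycling, 60.7 ± 33.4 CPM in fusion-allele, 53.1 ± 31.7 CPM in neuroblast-like and 51.0 ± 29.7 CPM in radial-glia-like cells, which did not differ beyond their spread. It was lower in OPC-like (25.4 ± 24.5 CPM) and astrocyte-like cells (14.7 ± 9.56 CPM). Ephb3 showed no class that stood out, with 16.6 ± 0.61 CPM in cycling, 15.8 ± 10.4 CPM in radial-glia-like and 14.8 ± 5.30 CPM in OPC-like cells.

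The neuronal members peaked in neuron-like cells of the 4 tumors that had them. Epha4 was at 146 ± 86.8 CPM there, at 121 ± 41.2 CPM in neuroblast-like cells and at 56.4 ± 25.7 CPM in fusion-allele cells. Epha7 was far more restricted, at 103 ± 36.5 CPM in neuron-like cells and a mean of no more than 18.4 CPM in any of the other main classes. Ephb6 was at 41.6 ± 23.2 CPM in neuron-like and 20.0 ± 15.3 CPM in OPC-like cells, which overlapped. Efnb2 was at 44.8 ± 23.0 CPM in neuron-like and 44.5 ± 28.0 CPM in neuroblast-like cells, followed by endothelial-like cells at 25.7 ± 12.5 CPM.

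The remaining members were highest in oligodendrocyte-like or endothelial-like cells. Efnb3 was at 457 ± 278 CPM in oligodendrocyte-like cells of tumors and 302 ± 52.6 CPM in those of controls, against 52.5 ± 46.4 CPM in neuron-like cells of tumors. Ephb1 was also highest in oligodendrocyte-like cells, at 117 ± 71.1 CPM in tumors and 80.1 ± 4.56 CPM in controls, followed by fusion-allele cells at 35.3 ± 17.1 CPM. Ephb4 was nearly restricted to endothelial-like cells, at 27.9 ± 13.9 CPM in tumors and 24.1 ± 14.9 CPM in controls, against 5.55 ± 2.23 CPM in pericytes or smooth muscle. An estimated share of free RNA was also subtracted from each sum, taken as the lowest ratio to free RNA over marker lists of unrelated classes. That ratio was as low as 0, so little was subtracted. Efnb1 in cycling cells was at 191 CPM afterwards and Efnb3 in oligodendrocyte-like cells at 470 CPM. None of the highest class levels moved by more than 1 SD, but this check could not show how much free RNA the levels hold.

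**Figure D2:**
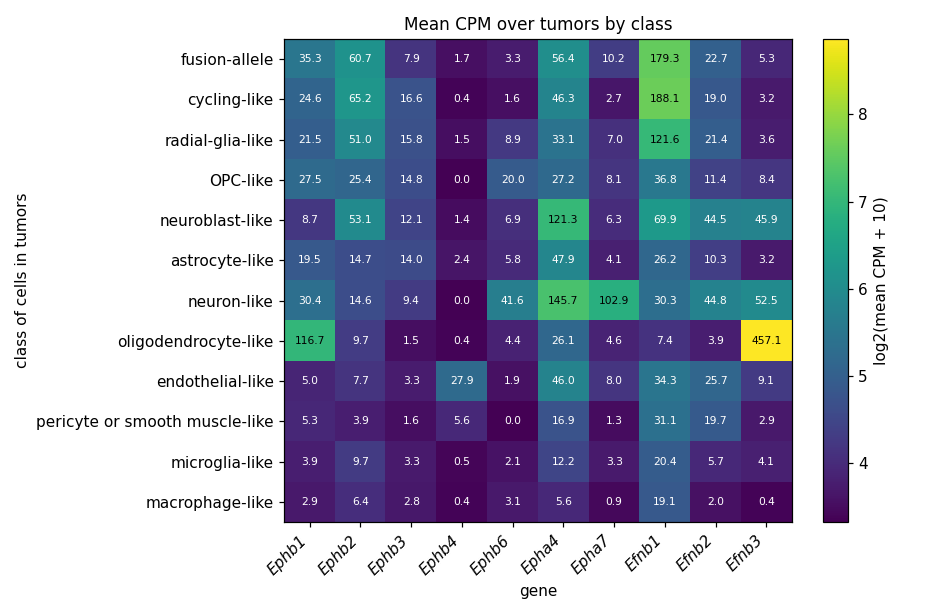
Mean CPM of each member (columns) in each class of tumor cells (rows), printed in the cells and coloured by log2(mean CPM + 10). Efnb1 and Ephb2 are high in cycling, fusion-allele and radial-glia-like cells and Ephb2 also in neuroblast-like cells, Efnb3 and Ephb1 in oligodendrocyte-like cells, Ephb4 in endothelial-like cells, and Epha4, Epha7 and Ephb6 in neuron-like cells.

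The unnamed cells, which passed no gate, were also counted. In tumors, fusion-allele, cycling, radial-glia-like and unnamed cells together held a mean of 53.1% of all UMIs (25.2% to 81.2% between tumors). They held 76.9% of the Efnb1 UMIs (54.7% to 95.2%) and 77.5% of the Ephb2 UMIs (58.5% to 90.7%), but 24.0% of those of Efnb3 and 18.6% of those of Ephb4. Efnb1 in unnamed cells was at 126 ± 84.4 CPM in tumors (n = 5) and 6.72 ± 1.76 CPM in controls (n = 4), and Ephb2 at 53.8 ± 25.9 CPM and 10.7 ± 1.18 CPM.

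Fusion-allele cells were then compared with other classes of the same tumors, with the mouse as a block. A gene was tested when it had enough counts in either class. Where a gene was rare in a class it was tested through the other, so the direction of its call was largely set by the filter. Efnb1 was at 19.1, 308, 155, 211 and 203 CPM in fusion-allele cells of tumors 1 to 5. In microglia-like cells of the same tumors it was at 6.16, 27.7, 11.05, 22.5 and 34.8 CPM, and in free RNA at 7.98, 142, 27.9, 120 and 95.2 CPM. The fusion-allele cells had the highest value of the 3 in each tumor. In tumor 1 only 3 of 49 fusion-allele cells held an Efnb1 UMI, so the order there is uncertain. Tumor 1 was low throughout, and its 49 fusion-allele cells carried neuron markers at 0.904 and astrocyte markers at 0.853 of their level in free RNA, where the other tumors lay lower. Ephb2 was at 31.9, 35.5, 50.2, 72.7 and 113 CPM in fusion-allele cells, at 6.16, 7.02, 1.74, 14.8 and 18.5 CPM in microglia-like cells, and at 11.98, 28.1, 11.3, 58.2 and 79.1 CPM in free RNA. Again the fusion-allele cells had the highest value in every tumor, in tumors 2 and 4 by the least relative to free RNA. In tumor 1 only 4 of the 49 cells held an Ephb2 UMI, so the order there is uncertain too.

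Of 1074 fusion-allele cells, a mean of 51.1% ± 29.7 (SD, n = 5 tumors) held an Efnb1 UMI and 26.4% ± 14.7 an Ephb2 UMI, at median depths of 2532 to 7492 UMIs per cell. Microglia-like cells of the same tumors, set beside them as a background, held one in 8.95% ± 5.10 and 4.10% ± 3.31 of cells at median depths of 2416 to 5954 UMIs. Cells under 2000 UMIs were then left out and the others thinned to that depth, which kept 36, 162, 35, 634 and 179 fusion-allele cells and 175, 487, 233, 303 and 295 microglia-like cells of tumors 1 to 5. The mean shares of Efnb1 and Ephb2 became 24.98% against 4.03% for Efnb1 and 12.3% against 1.97% for Ephb2. Cells with both transcripts made up 0% of the fusion-allele cells in tumor 1, 21.0% in tumor 2, 12.2% in tumor 3, 33.9% in tumor 4 and 25.6% in tumor 5. For Efnb1 and Ephb2 these were 0, 34, 6, 215 and 46 cells, where the product of the separate shares gives 0.245, 29.7, 3.67, 205 and 38.3.

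**Figure D3:**
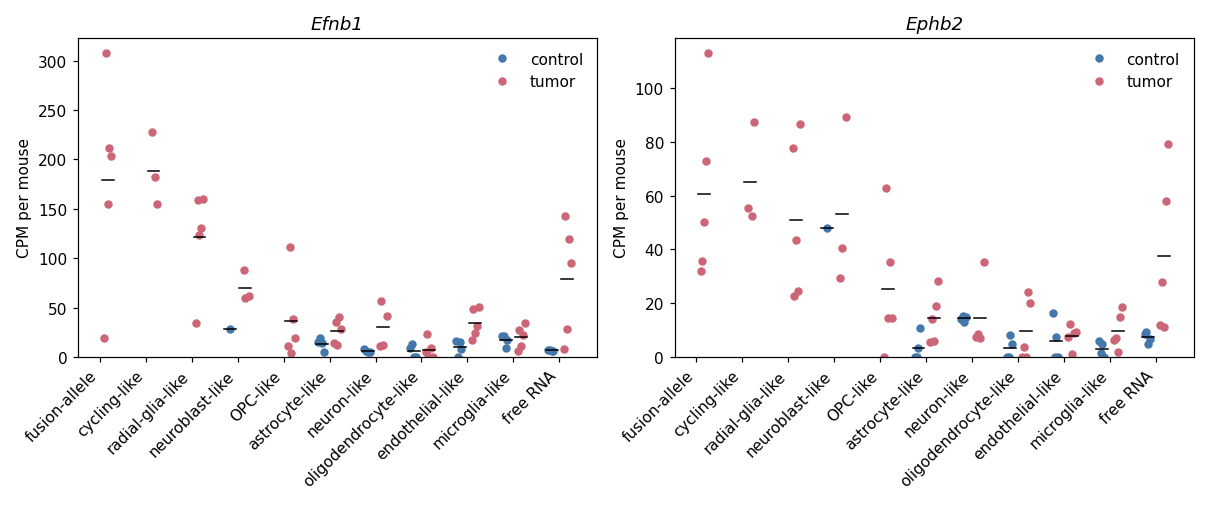
CPM of Efnb1 and Ephb2 per mouse (y axis, linear, starting at 0) in fusion-allele cells, in the other classes and in free RNA, with 1 point per mouse coloured by group and a black line at the group mean. Fusion-allele cells reach 308 CPM for Efnb1 and 113 CPM for Ephb2, and free RNA of tumors reaches 142 CPM and 79.1 CPM.

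Against astrocyte-like cells, 3 members had enough counts to be tested and 2 were higher in fusion-allele cells, where 36.3% of all genes tested passed (17.8% higher). Efnb1 differed by 2.60 ± 0.29 on the log2 scale (edgeR adjusted p = 8.06e-06) and Ephb2 by 1.97 ± 0.29 (edgeR adjusted p = 8.51e-05), while Epha4 did not pass (0.08 ± 0.28, edgeR adjusted p = 0.844). With astrocyte markers required at 4 times free RNA, too few counts were left to test either Efnb1 or Ephb2 in this comparison. With clusters, which left out tumor 4, they differed by 1.67 and 1.35 (edgeR adjusted p = 0.00224 and 0.0132).

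Against microglia-like cells all 5 members tested were higher in fusion-allele cells (47.8% of genes passed, 23.8% higher). A UMI of Ephb1 or Efnb2 was present in a mean of 1.78% and 2.31% of microglia-like cells of tumors, against 16.3% and 11.3% of fusion-allele cells. Members so rare in microglia-like cells pass the count filter mainly through fusion-allele cells, so the shared direction is not a separate result. Efnb1 differed by 2.71 ± 0.23, Ephb1 by 2.56 ± 0.41, Ephb2 by 2.20 ± 0.31, Epha4 by 1.80 ± 0.40 and Efnb2 by 1.63 ± 0.29 on the log2 scale (edgeR adjusted p of at most 0.00367). Against endothelial-like cells 6 members were tested, of which 3 were higher and 1 lower (38.5% of genes passed, 17.7% higher and 20.8% lower). Ephb2 was higher by 2.76 ± 0.40, Ephb1 by 2.73 ± 0.38 (2.12 with a mitochondrial share of at most 10%, which left out tumor 1) and Efnb1 by 2.21 ± 0.29 (edgeR adjusted p of at most 0.000394). Ephb4 was the lower one, with 5 UMIs in all fusion-allele cells against 100 in all endothelial-like cells of tumors (edgeR adjusted p = 0.000121), and no size is given because it rests on so few UMIs. It passed the count filter through endothelial-like cells, so the direction of this call was set by the filter. The reverse held for Ephb1 and Ephb2, with a UMI in a mean of 2.35% and 3.99% of endothelial-like cells of tumors. In fusion-allele cells these means were 16.3% and 26.4%, so the direction of both calls was largely set by the filter. Epha4 (0.28 ± 0.28) and the arterial ligand Efnb2 (-0.38 ± 0.50) did not pass.

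Against neuron-like cells of 4 tumors, 7 members were tested, of which 2 were higher and 3 lower in fusion-allele cells (56.2% of genes passed, 25.3% higher and 30.8% lower). The median gene differed by -0.16 on the log2 scale here. Efnb1 (2.57 ± 0.37) and Ephb2 (2.19 ± 0.36) were higher. Ephb6 (-3.84 ± 0.60), Epha7 (-3.23 ± 0.36) and Epha4 (-1.14 ± 0.29) were lower (edgeR adjusted p of at most 0.00522 for all 5), and the Epha4 call was lost without tumor 2 (-0.91, edgeR adjusted p = 0.0624). Ephb6 rested on 0, 1, 3 and 2 UMIs in fusion-allele cells of tumors 1, 2, 3 and 5, against 24, 42, 26 and 8 UMIs in neuron-like cells, so its size is uncertain. Ephb6 passed the count filter through neuron-like cells, so its direction was set by the filter. Its difference was -4.56 without tumor 3 and -2.41 with clusters in place of gates, and without tumor 2 it had too few counts for a test. Ephb1 (0.44 ± 0.34) and Efnb2 (-0.57 ± 0.35) did not pass.

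OPC-like cells, of the oligodendrocyte precursor lineage, had the smallest Ephb2 difference of the 5 classes tested. Of 3 members tested 2 were higher in fusion-allele cells, Efnb1 by 2.54 ± 0.34 and Epha4 by 1.23 ± 0.23 (edgeR adjusted p = 0.000412 and 0.00242), with 28.4% of genes passing (13.9% higher). Ephb2 differed by 1.07 ± 0.43 (edgeR adjusted p = 0.0926), and it passed with DESeq2 (1.43, adjusted p = 0.0495) and with no filter on low counts (1.14, edgeR adjusted p = 0.000606). Under the other 8 alternatives that could be fitted, Ephb2 did not pass. In OPC-like cells Ephb2 was at 0, 63.0, 14.4, 35.3 and 14.4 CPM in tumors 1 to 5, so that tumor 2 alone lay above its own fusion-allele cells. Without tumor 2 no member had enough counts to be tested. With the clusters of an unsupervised clustering in place of the gates, Epha4 differed by 0.49 and no longer passed (edgeR adjusted p = 0.198).

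**Figure D4:**
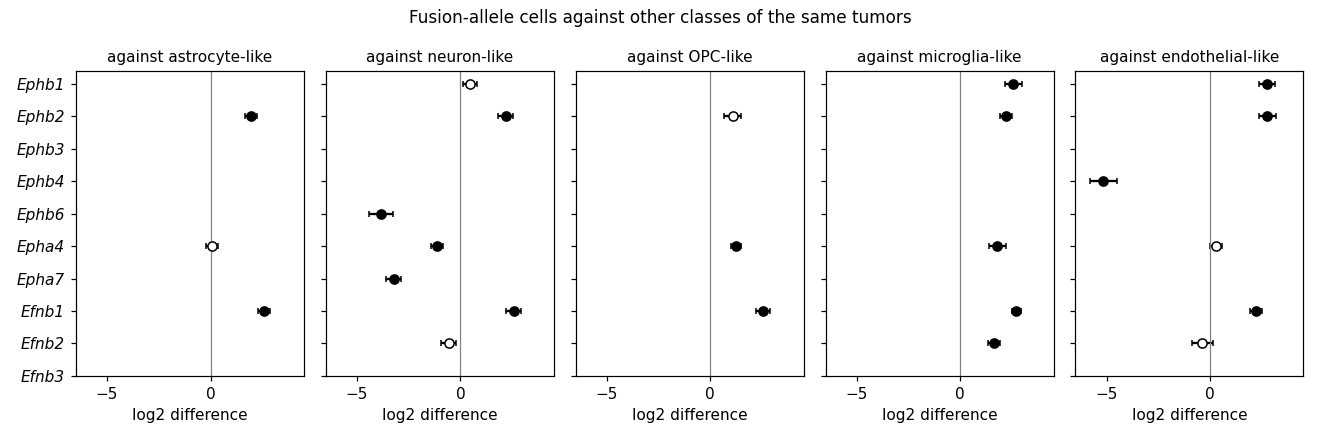
Log2 difference of each tested member between fusion-allele cells and 5 other classes of the same tumors (x axis), with 1 panel per class and bars of 1 SE. Filled points have an edgeR adjusted p under 0.05 and open points do not. Efnb1 lies between 2.21 and 2.71 in all 5 panels.

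Within fusion-allele cells no member passed between states. Cycling and non-cycling fusion-allele cells of 3 tumors were compared for 5 members, and none passed (12.7% of 8024 genes did, 7.69% higher and 5.01% lower), nor by DESeq2. At an unadjusted p under 0.05 it was 1 member, Epha4 (-0.44 ± 0.20). Efnb1 differed by -0.01 ± 0.13 and Ephb2 by -0.15 ± 0.18, Ephb1 by -0.15 ± 0.29 and Efnb2 by -0.26 ± 0.36. Fusion-allele cells with transcripts of all 3 of Igf2, H19 and Dlk1 were likewise compared with the remaining ones in 3 tumors. None of 4 members passed by edgeR or DESeq2, none was under an unadjusted p of 0.05, and 0.0992% of all genes passed (0.0567% higher and 0.0425% lower). Efnb1 differed by 0.30 ± 0.21, Ephb2 by 0.00 ± 0.23, Ephb1 by -0.36 ± 0.30 and Epha4 by -0.53 ± 0.26. Grouped by clusters in place of gates, which brought in all 5 tumors, Efnb1 differed by 0.64 in this last comparison (edgeR adjusted p = 0.0239). In that fit 632 of 11182 genes passed.

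Tumor and control mice were next compared within each class. In neuron-like cells, 1 of 9 tested members passed (14.3% of genes did, 7.01% higher and 7.26% lower). It was Efnb1, at 8.07, 6.19, 4.78 and 5.31 CPM in controls and at 11.4, 56.6, 11.97 and 41.3 CPM in tumors 1, 2, 3 and 5. All 4 tumors lay above the controls, tumors 2 and 5 by far (log2 difference 2.12 ± 0.46, edgeR adjusted p = 0.00931), and the call was lost without tumor 2 (1.36, edgeR adjusted p = 0.0533). Free RNA held Efnb1 at 6.04 to 7.48 CPM in controls and 7.98 to 142 CPM in tumors, highest in tumor 2 here as well, and its part in the result was not tested. Epha4, Epha7 and Ephb6, lower over all tumor cells, differed in neuron-like cells by -0.03 ± 0.34, -0.27 ± 0.22 and 0.06 ± 0.29 on the log2 scale (edgeR adjusted p of at least 0.438). Ephb2 was at 13.2 to 15.4 CPM in neuron-like cells of controls and at 7.32, 8.70, 7.18 and 35.4 CPM in those of tumors 1, 2, 3 and 5 (-0.44 ± 0.36, edgeR adjusted p = 0.458). Without tumor 5 the Ephb2 difference was -1.004 (edgeR adjusted p = 0.0304).

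In microglia-like cells 4 of 5 tested members were lower in tumors and none higher (44.1% of genes passed, 20.5% higher and 23.6% lower). Epha4 was at 123, 107, 114 and 114 CPM in microglia-like cells of controls and at 13.9, 16.9, 2.91, 10.97 and 16.3 CPM in those of tumors (log2 difference -2.80 ± 0.36). Epha7 was at 41.9, 36.8, 38.1 and 73.0 CPM in controls and 0.549 to 6.16 CPM in tumors (-3.66 ± 0.47). Neither gene's groups overlapped. Efnb3 (-3.27 ± 0.48) and Ephb1 (-2.45 ± 0.41) moved the same way (edgeR adjusted p of at most 0.000556 for all 4), and Efnb1 did not pass (0.72 ± 0.48, edgeR adjusted p = 0.249). A UMI of Epha7, Efnb3 or Ephb1 was present in a mean of 1.24%, 1.53% and 1.78% of microglia-like cells of tumors. In those of controls these means were 13.1%, 12.3% and 9.29%. Members so rare in tumors pass the count filter mainly through controls, so their direction was largely set by it. Neuron markers were also lower in microglia-like cells of tumors. The 8 markers summed to 3810 to 4472 CPM in microglia-like cells of controls, 0.682 to 0.760 of their level in free RNA, and to 99.3 to 1081 CPM in those of tumors, 0.0703 to 0.274 of free RNA, with none at 0 in any mouse. Epha4 itself was at 144 to 181 CPM in the free RNA of controls, above its level in their microglia-like cells. The part of free RNA in these 4 results was not tested.

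**Figure D5:**
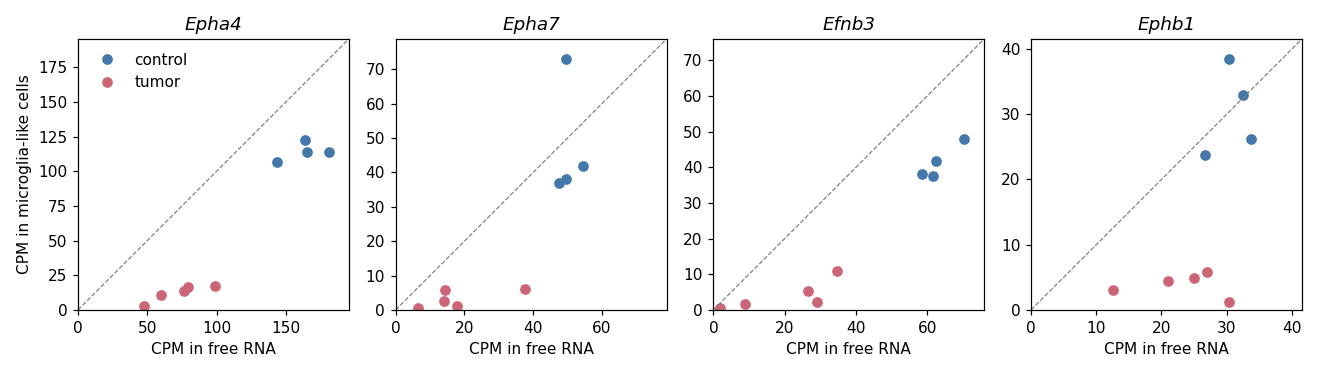
CPM of members in microglia-like cells (y axis) against their CPM in free RNA of the same library (x axis), both linear, with 1 point per mouse and a dashed line where both are equal. Epha4 in controls lies below that line, at 107 to 123 CPM against 144 to 181 CPM, and in tumors it lies near the bottom at 2.91 to 16.9 CPM.

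Epha4 was the only member called in each of the other 3 classes, always lower in tumors. In astrocyte-like cells it was the 1 member tested (27.6% of genes passed, 14.5% lower), at 108, 125, 129 and 90.6 CPM in controls and 31.6, 77.8, 29.6, 54.5 and 46.2 CPM in tumors. The groups did not overlap (log2 difference -1.29 ± 0.32, edgeR adjusted p = 0.00603), but with markers required at 4 times free RNA, which also left out control 1, the call was lost (-0.97, edgeR adjusted p = 0.126). In endothelial-like cells, where 25% of genes passed (12.8% lower), Epha4 was at 198, 96.5, 126 and 113 CPM in controls and 60.8, 43.9, 70.7, 36.3 and 18.5 CPM in tumors. The difference of -1.37 ± 0.36 (edgeR adjusted p = 0.0139) was lost without control 1, the highest of all (-1.16, edgeR adjusted p = 0.0581). In oligodendrocyte-like cells, where 23.5% of genes passed (13.1% lower), it was at 138, 157, 80.2 and 89.5 CPM in controls and 16.2, 21.5, 35.3, 27.3 and 30.1 CPM in tumors (-2.12 ± 0.33, edgeR adjusted p = 0.00108). Neuron markers were again nearer to free RNA in controls than in tumors, at 0.617 to 0.725 against 0.187 to 0.459 in astrocyte-like cells, 0.479 to 0.690 against 0.0869 to 0.239 in endothelial-like cells and 0.490 to 0.720 against 0.0349 to 0.211 in oligodendrocyte-like cells. Markers of pericytes or smooth muscle also moved with Epha4 in endothelial-like cells. Their 10 genes summed to 2445 to 3133 CPM in controls (34.1 to 56.2 times free RNA, 1 to 3 genes at 0) and to 35.3 to 1965 CPM in tumors (0.0569 to 7.81 times free RNA, at most 2 genes at 0), without overlap. The part of either marker list in the Epha4 results was not tested.

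The members typical of these classes were not called with all mice and the gates. In oligodendrocyte-like cells Efnb3 was at 332, 253, 361 and 264 CPM in controls and at 709, 458, 661, 6.08 and 452 CPM in tumors 1 to 5. Tumors 1, 2, 3 and 5 lay above all controls, and tumor 4, with 2 Efnb3 UMIs in 42 cells, far below them. The log2 difference was 0.69 ± 0.72 (edgeR adjusted p = 0.5004) with all mice, and 1.02 without tumor 4 (edgeR adjusted p = 0.00212). It passed in 2 more fits that also held no tumor 4, with 1 more marker required per cell (tumors 1, 2 and 5, 0.90, edgeR adjusted p = 0.00175) and with clusters in place of gates (tumors 1, 2, 3 and 5, 1.83, edgeR adjusted p = 4.90e-07). Ephb1 was at 73.8 to 84.5 CPM in oligodendrocyte-like cells of controls and 46.2 to 229 CPM in those of tumors (0.61 ± 0.43, edgeR adjusted p = 0.313). With clusters, and thus without tumor 4, Ephb1 passed (0.84, edgeR adjusted p = 0.0438). In endothelial-like cells the venous receptor Ephb4 was at 16.5, 40.2, 7.39 and 32.3 CPM in controls and 21.9, 15.1, 50.5, 31.4 and 20.8 CPM in tumors, with overlap (0.28 ± 0.54, edgeR adjusted p = 0.745). Efnb2 was at 16.5, 40.2, 29.6 and 32.3 CPM in controls and 26.7, 4.54, 35.3, 34.3 and 27.7 CPM in tumors, also with overlap (-0.20 ± 0.55, edgeR adjusted p = 0.831). Controls 1 to 4 held only 24, 27, 26 and 23 endothelial-like cells. A mean of 10.1% of these cells held an Ephb4 UMI and 12.9% an Efnb2 UMI, so the control levels rest on few UMIs.

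Endothelial-like cells of the 5 tumors were further divided by arterial and venous markers, lists that hold neither Efnb2 nor Ephb4. A cell took the kind with more of its list genes detected, above a low minimum and with no limit over free RNA. By this loose rule 370 of 663 cells counted as venous, and they need not all be venous. Tumor 3 alone had 20 cells of both kinds, so no test was made and the sums over tumors are given with exact Poisson intervals that cover counting error only. Efnb2 was at 97.2 CPM in 58 arterial cells (34 UMIs, 95% interval 67.3 to 136) and at 11.99 CPM in 370 venous cells (27 UMIs, 7.90 to 17.5). In tumor 3 by itself it was at 76.0 CPM in 34 arterial and 6.77 CPM in 73 venous cells. Ephb4 was at 31.4 CPM (11 UMIs, 15.7 to 56.3) in arterial and 29.3 CPM (66 UMIs, 22.7 to 37.3) in venous cells, where the intervals overlapped. Tumor 3 held 34 of the 58 arterial but 73 of the 370 venous cells, so these sums weight the tumors differently. In tumor 3 by itself Ephb4 was at 38.0 CPM in arterial cells (8 UMIs, 16.4 to 74.9) and 56.4 CPM in venous cells (25 UMIs, 36.5 to 83.3), again with overlapping intervals.

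The rest of the pathway was read from lists of other receptors, ephrin-A ligands and signalling partners, over all kept cells, where 61.6% of all genes tested passed (32.3% higher and 29.4% lower). Of 7 other Eph receptors 6 were tested, 1 higher and 4 lower in tumors (median log2 difference -2.23, where that of all genes was 0.04). Epha2, an epithelial and vascular receptor, rose by 3.77 ± 0.52, and Epha5 (-2.55 ± 0.33), Epha8 (-2.35 ± 0.56) and Epha3 (-2.01 ± 0.64), receptors of neurons, were lower (edgeR adjusted p of at most 0.0200). Of 5 ephrin-A ligands 3 were higher and 1 lower (median 1.75). Efna4 (4.13 ± 0.59), Efna2 (2.90 ± 0.55) and Efna1 (1.75 ± 0.43) were higher and Efna3 (-2.66 ± 0.80) lower (edgeR adjusted p of at most 0.0163). Of 22 effectors of the receptors 5 were higher and 11 lower (median -0.65). Those with the smallest adjusted p were the GTPase Rhoa (2.40 ± 0.34), Vav2 (1.45 ± 0.29) and the kinase Abl1 (0.76 ± 0.19) on the higher side. On the lower side they were Chn1 (-2.32 ± 0.27), a Rac-inactivating protein that acts below EphA4, the kinase Pak1 (-1.71 ± 0.27) and the Rap-inactivating Sipa1l1 (-1.62 ± 0.31). Of 11 genes of reverse signalling and ephrin shedding 5 were higher and 3 lower (median 0.57), with Stat3 (2.03 ± 0.24), the ephrin-cleaving protease Adam10 (1.19 ± 0.18) and the phosphatase Ptpn13 (1.40 ± 0.27) leading the first and Pick1 (-1.05 ± 0.17), Dvl2 (-0.53 ± 0.14) and Pard6b (-1.42 ± 0.49) the second.

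Across the classes of tumor cells some of these genes separated in the same comparisons as the members. Against endothelial-like cells Efna1 was lower in fusion-allele cells, where it was near 0 (a mean of 0.152 against 47.2 CPM over 5 tumors), and so was Epha2 (0.237 against 22.3 CPM). Both genes passed the count filter through endothelial-like cells, so their direction was set by it. Efna2 (40.1 against 5.06 CPM) and the receptor Epha5 (54.6 against 15.4 CPM) were higher. In this comparison 38.5% of all genes passed (17.7% higher and 20.8% lower). Efna2, rare in endothelial-like cells, passed the count filter mainly through fusion-allele cells, so its direction was largely set by it. Against neuron-like cells 3 of the 7 receptors of the list had enough counts to be tested. All 3 were lower in fusion-allele cells, where 56.2% of all genes passed (30.8% lower). In means over 5 tumors for fusion-allele and 4 for neuron-like cells, they were Epha5 at 54.6 against 451 CPM, Epha10 at 4.10 against 97.3 CPM and Epha6 at 4.38 against 47.8 CPM. Epha10 and Epha6 passed the count filter mainly through neuron-like cells, so their direction was largely set by it. Between cycling and non-cycling fusion-allele cells Epha5 was the 1 gene of the 4 lists that passed (-1.27, edgeR adjusted p = 0.00174).

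Genes whose mean log2(CPM + 10) ran most alike over 15 classes of tumor cells were sought among 12640 genes, as a description in which classes of a mouse share a library and its free RNA. Efnb1 ran most like Aida (Pearson r = 0.966), Fgf15 (0.956) and Akt1 (0.944), and Ephb2 most like Tecta (0.930), Thoc3 (0.929) and Lhx1os (0.918). Epha7 ran most like Epha6 (0.971), Galnt9 (0.970) and Akap5 (0.970), and Ephb6 like Csmd1 (0.956), Nell2 (0.934) and Scn1a (0.924), all highest in neuron-like cells. Epha4 ran like Nmt2 (0.908), Hcfc2 (0.894) and Robo2 (0.894), of which Robo2, another guidance receptor, was highest in neuroblast-like cells. Efnb3 ran most like Sez6l2 (0.965), Stmn4 (0.956) and Kctd13 (0.953), and Ephb1 like Abca2 (0.976), Neo1 (0.897) and Arhgap23 (0.889), all highest in oligodendrocyte-like cells. Ephb4 ran most like Tmem252, Fmo2 and Foxf1 (0.986, 0.986 and 0.984), each highest in endothelial-like cells, and Efnb2 like Ehmt1, Med14 and Prrc2b (0.921, 0.921 and 0.887). For Ephb3, whose highest class mean was under 20 CPM, no such genes were sought.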

How the data were processed

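The deposited UMI counts per gene and barcode had been made by the authors with Cell Ranger (6.1.2 per the file headers, 7 per the submitters' notes) on mm10 with 4 added sequences of the fusion allele and reporter. The analysis started from the 10000 deepest barcodes of every library (all 9001 of tumor 3) and kept those with 200 to 6000 genes. They also had to fall in the part with lower mitochondrial share of a Gaussian mixture on that share and the number of genes. Doublets were then removed by score at 0.8% per 1000 cells. In tumors 3, 4 and 5 this kept 1721, 5121 and 3645 cells, where a mitochondrial limit of 10% kept 4291, 9178 and 9139. Marker gates were set after the distributions of the markers, but not of the members, had been seen. The members, gene lists and tests were chosen with earlier results of these data known. Counts were summed per mouse and class (at least 20 cells, at least 3 mice a group) and tested with edgeR 4.0.16 (quasi-likelihood, TMM, filterByExpr, Benjamini-Hochberg over all genes tested, threshold 0.05), with mouse as a block between classes of the same tumors. DESeq2 1.42.0, other filters, gates, clusters (Scanpy 1.11.5) and left-out mice were alternatives. Named genes were all 10 members, the 3 genes per list and direction with the smallest adjusted p, and the 3 genes most like each member with a class mean of at least 20 CPM. Fits were tested on simulated data. The replicates were separate mice per the labels. A legend of the study counts 4 tumor mice without naming them, and all 5 labelled tumor samples were used. Intervals cover counting error only, and each SE was derived from the log2 difference and the quasi-likelihood F statistic of its edgeR test. The deposited lists of control 4 were shorter than its matrix (80865 barcodes for 80887 columns), so its columns were used without their barcodes; its mouse genes were in the same order as in the other libraries.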

Additional observations from a re-analysis of the deposited data

Results flagged for a closer look

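Of 70 groups of 4 or 5 mice, 8 held a mouse set apart from the others by more than Dixon's 95% limit, and chance flags about 1 in 20 groups. Ephb4 over all kept cells was at 7.24 CPM in tumor 3, where the nearest tumor was at 2.37 CPM. Efnb2 in endothelial-like cells was at 4.54 CPM in tumor 2, on 3 UMIs, with the nearest tumor at 26.7 CPM. In neuron-like cells Efnb2 was at 79.0 CPM in tumor 3 (nearest 37.7 CPM) and at 38.6 CPM in control 4 (nearest 35.4 CPM). Ephb2 in neuron-like cells was at 35.4 CPM in tumor 5, on 12 UMIs, with the nearest tumor at 8.70 CPM. Epha7 in microglia-like cells was at 73.0 CPM in control 4, with the nearest control at 41.9 CPM. In fusion-allele cells Ephb4 was at 6.38 CPM in tumor 1, on 1 UMI (nearest 1.62 CPM), and Ephb6 at 12.5 CPM in tumor 3, on 3 UMIs (nearest 1.97 CPM).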

How the results depend on the processing

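Of 945 values of single members under an alternative, 924 kept their side of the threshold, 13 lost the call and 8 gained one. No called difference changed sign, and 41 differences that had not been called did. Several gate, cluster and cell-number settings also changed which mice had enough cells, so that 2 choices moved together. The number of members called moved by over 1.5 times in the following cases, and the cause was not tested. With no filter on low counts it was 2 in astrocyte-like, 3 in endothelial-like and 2 in oligodendrocyte-like cells (tumor against control), 6 for fusion-allele against OPC-like cells and 1 for cycling cells. In the same order, 2224 of 17777, 2435 of 17875, 1734 of 16698, 3061 of 19425 and 1223 of 18351 genes passed in these fits. With clusters it was 4 in astrocyte-like and 4 in oligodendrocyte-like cells and 1 for cells high in Igf2, H19 and Dlk1. There 2663 of 8448, 3110 of 6422 and 632 of 11182 genes passed. With markers at 4 times free RNA, an alternative chosen after seeing the data, it was 0 in astrocyte-like cells, 0 for fusion-allele against astrocyte-like and 1 against OPC-like cells. Of all genes, 668 of 3394, 1523 of 3791 and 1471 of 4898 passed. With 1 more marker it was 2 in oligodendrocyte-like cells, 1 against astrocyte-like and 1 against OPC-like cells. Here 1206 of 2812, 1933 of 5138 and 1485 of 4584 genes passed. With no doublets removed it was 2 in endothelial-like cells (1762 of 6899 genes passed), and with no replicate block 1 against OPC-like cells (726 of 5378). Leaving out each mouse gave 6 to 7 members over all cells, 0 to 1 in endothelial-like (0 without control 1), 0 to 2 in neuron-like (0 without tumor 2, 2 without tumor 5), 1 to 2 in oligodendrocyte-like cells (2 without tumor 4), and 0 to 3 against OPC-like cells (0 without tumor 2). Over all cells, 9097 of 17872 to 11970 of 17406 genes passed in these fits. In the class fits named in brackets it was, in the same order, 1309 of 7294, 2334 of 15937, 2470 of 15994, 1184 of 3108 and 1236 of 4755 genes.

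The numbers of control and tumor mice name separate animals, and same-numbered mice correlated at 0.00787 to 0.0950. The replicate block could hold only shared numbers, so tumor 5 was left out of it (and control 4 too in neuron-like cells). With it, 6 members were called over all cells (8667 of 17454 genes passed), and Efnb2 (-0.48, edgeR adjusted p = 0.122) was lost as it was without tumor 5 alone. Efnb1 differed by 3.50 and Ephb2 by 1.35 there, and in the 5 classes the count was as in the fit without it. The mitochondrial limit of 10% was not run for astrocyte- and endothelial-like cells, where fewer than 3 mice a group remained. The alternatives for arterial and venous cells were not run, since these had no test. Low counts limited the class comparisons, and depth and low expression were not told apart. Ephb3, Ephb4 and Ephb6 had enough counts for a test in no more than 3 of 13 comparisons.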
